A study of Caenorhabditis elegans with 2 samples.

Results

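Peaks of the transcription factor EGRH-3 were examined at unk-1 and at 8 genes for subunits of the CCR4-NOT deadenylase complex, 9 of the 19973 nuclear protein-coding genes of Caenorhabditis elegans. The genes were chosen because unk-1 and ntl-2 lay at 2 of the strongest promoter peaks, so the peak signals at these 2 genes chose the set and are given as a description. The other 7 genes, ntl-3, ntl-4, ntl-9, ntl-11, let-711, ccf-1 and ccr-4, were taken for their place in the same complex as ntl-2. Each gene window ran from 2000 bp upstream of the outermost annotated transcript 5' end to the end of the gene, and every row of the 8 peak lists with a summit in a window was kept, 295 rows in all.

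Chromatin immunoprecipitation followed by sequencing was done with an antibody against GFP on whole young adult worms at 65 h. The strain, RW12196, carries a TY1, EGFP and 3xFLAG tag inserted with CRISPR into egrh-3 at its own locus on chromosome IV (allele st12196), and the worms had been synchronised by bleaching and starvation at the L1 larval stage. Chromatin was sonicated to 200 to 800 bp. The samples form 1 group of 2 biological replicates of this tagged strain, with no second genotype or treatment, and no lists of worms without the tag were analysed here. Whole animals were used, so the cell types behind a peak cannot be told apart.

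The CCR4-NOT complex shortens the poly(A) tails of mRNAs, a step that leads to translational silencing and mRNA decay. A scaffold of the NOT1 type holds the CAF1 and CCR4 nucleases and the other NOT proteins, and RNA-binding proteins bring the complex to chosen transcripts. In the C. elegans germline and early embryo, where gene control depends heavily on stored mRNAs, the complex is needed for fertility. unk-1 is named for the Unkempt proteins, which bind RNA through CCCH zinc fingers and repress translation in mammalian neurons. EGRH-3 belongs to the EGR family of C2H2 zinc finger factors, whose mammalian members bind GC-rich sites.

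The sequences below surround the strongest summits of unk-1, ntl-2 and ntl-3 and the weaker second summit of unk-1, because base composition and runs of a single base set them apart from one another. Each is 151 bp, read 5' to 3' on the strand of its gene from the WBcel235 (ce11) assembly with the summit at the centre. Capitals mark runs of 10 or more G or of 10 or more C, and matches to GTGGGCG or GTGGGTG, the core of an EGR-type site, on either strand. The start of the second unk-1 sequence cuts through a run of 15 G, whose last bases are left in lower case. The unk-1 sequences are chrX:8017347-8017497 and chrX:8019776-8019926 on the plus strand, that of ntl-2 is chrII:4376889-4377039 on the minus strand, and that of ntl-3 is chrIII:11836853-11837003 on the minus strand.
unk-1 strongest summit: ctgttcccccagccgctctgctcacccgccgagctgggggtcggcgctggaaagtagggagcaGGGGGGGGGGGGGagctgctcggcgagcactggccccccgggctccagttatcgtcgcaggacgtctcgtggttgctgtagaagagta
unk-1 second summit: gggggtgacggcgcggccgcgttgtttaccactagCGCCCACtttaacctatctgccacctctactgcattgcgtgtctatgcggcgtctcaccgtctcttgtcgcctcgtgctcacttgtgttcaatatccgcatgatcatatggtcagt
ntl-2 summit: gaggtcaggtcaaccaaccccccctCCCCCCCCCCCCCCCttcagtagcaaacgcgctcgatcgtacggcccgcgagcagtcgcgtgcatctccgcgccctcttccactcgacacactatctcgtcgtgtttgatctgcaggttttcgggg
ntl-3 strongest summit: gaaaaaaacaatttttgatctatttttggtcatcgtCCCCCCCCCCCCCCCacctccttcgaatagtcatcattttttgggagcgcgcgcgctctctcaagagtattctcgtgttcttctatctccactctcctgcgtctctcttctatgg

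The 8 lists comprise 4 made from both replicates together and 2 for each replicate. The conservative list of 2218 peaks and a larger list of 3278 peaks passed the authors' filter on the irreproducible discovery rate (IDR), the estimated share of irreproducible peaks among those of a given rank or better. The corresponding lists of replicate 1 and replicate 2 hold 2868 and 1463 peaks, and 4 ranked lists without that filter hold 25602 to 26947 rows. The signal is each peak's own value, the authors' measure of its strength, and signals of different lists do not share a stated scale. The lists give no read counts, so the depth behind each signal is unknown. With 2 replicates and 1 group there is no comparison of conditions, and the 2 replicate values are the only measure of spread.

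In the conservative list 4 of the 9 genes, unk-1, ntl-2, ntl-3 and ccr-4, had a summit in the window, against 10% of all nuclear protein-coding genes. The genes were chosen from this readout through the peaks of unk-1 and ntl-2, so the place of these in the count was fixed beforehand. Of the 7 genes taken for their place in the complex, only ntl-3 and ccr-4 had a conservative summit. Most of the 9 genes are long, with a median window of 12311 bp against 4027 bp for all coding genes. Among the 935 coding genes with a window of at least 12311 bp, 26.3% had a conservative summit. The larger list placed a summit at 6 genes, adding ntl-4 and ntl-11, against 13.9% of all coding genes and 37.3% of the long ones. The list of replicate 1 had summits at 4 genes (12% of all coding genes, 33.7% of the long ones) and that of replicate 2 at 3 genes, without ccr-4 (7.08% and 19.5%). In the promoter window, from 1000 bp upstream to 200 bp downstream of a 5' end, 3 genes had a conservative summit, against 4.86% of coding genes. These genes were unk-1, ntl-2 and ntl-3, of which only ntl-3 had no part in choosing the set. The list of replicate 1 gave the same 3 (5.03% of coding genes). The larger list gave 5 genes (6.57%), and that of replicate 2 gave unk-1 and ntl-2 (3.60%). A promoter window was taken at every annotated 5' end, so a gene with more ends has more room for a summit. The 9 genes have from 1 end (ccf-1 and ntl-9) to 10 (ntl-2), and no share over genes with as many ends was taken. The unk-1 and ntl-3 promoter summits lay at internal ends. No gene other than unk-1, ntl-2, ntl-3 and ccr-4 passed the filter in a single replicate.

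The 9 genes spread over a wide range when ranked by the strongest row in the window. In the ranked list made between the replicates, all 9 genes had a row, against 51.6% of all coding genes, and all 9 also had one in the other ranked list (52%). The strongest rows of unk-1 and ntl-2 exceeded those of 99.93% and 99.91% of coding genes, placing the genes 12th and 16th. Those of ntl-3 and ccr-4 exceeded the rows of 94.82% and 90.02% of coding genes. The strongest row of ntl-11 exceeded 87.49%, that of ntl-4 86.3%, that of let-711 83.27% and that of ccf-1 79.71%. The ntl-9 row exceeded 56.86% and had a signal of 23.25, against a median over coding genes of 15.15. Genes without a row count in these shares and in that median as having no signal. A longer window has more room for a strong row, and no share over long genes was taken here. The windows of unk-1, let-711, ntl-3, ccr-4 and ntl-11 are longer than those of 95.32% to 98.31% of coding genes. Those of the rest are longer than 31.63% (ccf-1) to 81.85% (ntl-4). In the separate ranked lists, 8 of the 9 genes had a row in replicate 1 (53.9% of coding genes) and all 9 in replicate 2 (58.5%), the missing one being ntl-9. The first 3 places went to unk-1, ntl-2 and ntl-3 in both replicates, and ntl-9 came last in replicate 2. The places between them changed, with ccr-4 ahead of ntl-11 in replicate 1 and behind it in replicate 2, and with let-711 ahead of ccf-1 and ntl-4 in replicate 1 and behind both in replicate 2. These neighbours are not separated beyond the spread between the replicates. For let-711, ntl-11 and ccf-1 the strongest rows of the replicates also lay at different sites. Those of let-711 were at 6945415 in replicate 1, in a coding exon of the neighbour abu-13, and at 6953617 in replicate 2. Those of ntl-11 were at 15471618 in replicate 1 and at 15472624 in replicate 2, the latter at −185 bp from a 5' end of Y73F8A.27.

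**Figure D1:**
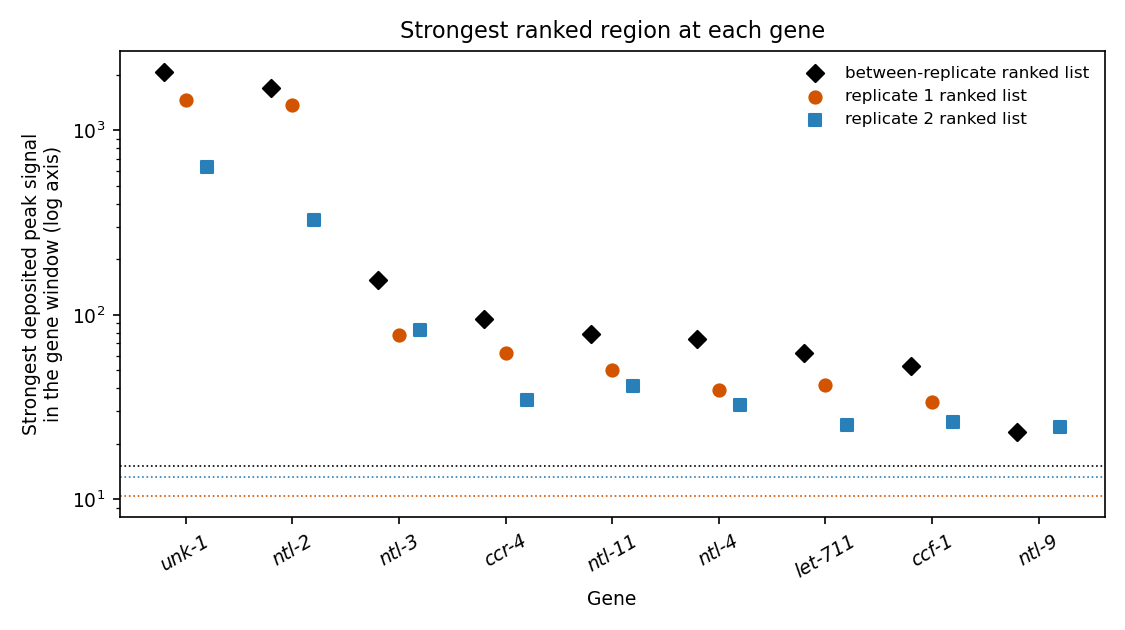
Strongest deposited peak signal (log axis) in the window of each gene, in the ranked list made between the replicates (diamonds), that of replicate 1 (circles) and that of replicate 2 (squares), with dotted lines at the median over all 19973 coding genes in the same list. unk-1 and ntl-2 lie far above the other genes in all 3 lists, from 327.7 upwards, while ntl-3 is the highest of the rest at 77.71 to 154.6 and ntl-9 has no row in replicate 1.

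unk-1 (WBGene00016407, chrX:8014983-8026869, plus strand, 4 transcripts) had the strongest peak of the 9 genes. The peak, chrX:8017193-8017644, had its summit at 8017422 and a signal of 2069.3, which ranked 9 of 2218, with a global IDR of 1e-05. Replicate 1 alone gave 1453.5 in its ranked list, replicate 2 gave 630.4, and the replicate summits lay at −5 and −11 bp from the shared one. Both replicates thus placed the peak at the same site, replicate 1 with 2.31 times the value of replicate 2. The peak ranked 7 of 2868 among the filtered rows of replicate 1 and 15 of 1463 among those of replicate 2. The summit was not at the outermost start of unk-1: it lay 2439 bp inside the gene, in an intron, at −508 bp from an internal 5' end of a shorter transcript. The same summit also lies in the promoter window of C34D10.5, a small coding gene nested in unk-1.

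A second conservative unk-1 peak, chrX:8019712-8019955, had its summit at 8019851, also in an intron, 4868 bp from the outermost 5' end and 699 bp downstream of an internal one. Its signal was 233.3, rank 544 of 2218, with 139.9 in replicate 1 and 90.42 in replicate 2. It passed the filter in both replicates, whose summits each lay at −26 bp from the shared one. A weaker intronic row at 8021813, with a signal of 73.49, was in the larger list and that of replicate 1 only. Its global IDR in the between-replicate list was 0.0102, just outside the limit of 0.01. unk-1 had 13 rows in the between-replicate ranked list, and the other 10 had signals from 10.67 to 43.81.

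ntl-2 (WBGene00003825, chrII:4372739-4376465, minus strand, 12 transcripts) encodes a protein with the NOT2, NOT3 and NOT5 C-terminal domain, which in yeast and mammals joins NOT2 and NOT3 to the scaffold. Its conservative peak, chrII:4376697-4377199, had a summit at 4376964 between genes, at −499 bp from the outermost 5' end. The signal was 1690.8, rank 16 of 2218, with a global IDR of 1e-05. Replicate 1 gave 1372.6 and replicate 2 gave 327.7, a ratio of 4.19, and the summits lay at 1 and −15 bp from the shared one. The peak passed the filter in both replicates, at rank 8 of 2868 in replicate 1 and rank 57 of 1463 in replicate 2. The unk-1 and ntl-2 signals were therefore close in replicate 1 and apart in replicate 2. No other ntl-2 row passed the filter between the replicates. A row in a coding exon near the 3' end, at 4373057, was in the list of replicate 1 only, with a signal of 65.69 and rank 1891 of 2868. That summit also lies in the promoter window of another coding gene, paic-1, at −532 bp from a 5' end.

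ntl-3 (WBGene00003826, chrIII:11831012-11846465, minus strand) encodes the Not3 subunit, the partner of NOT2. It had 3 conservative peaks, all in the 3' part of a 15454 bp gene. The strongest, chrIII:11836822-11837027, had its summit at 11836928 in an intron, 9537 bp from the outermost 5' end, with a signal of 154.6 and rank 973 of 2218. Its values were 77.71 in replicate 1 and 82.33 in replicate 2, on scales not stated to be shared, and it passed the filter in both. In the ranked lists it stood higher in replicate 2, at rank 658 of 25602, than in replicate 1, at rank 1753 of 26515. The second, with its summit at 11833783 in a coding exon, at −86 bp from an internal 5' end, had a signal of 90.14, with 47.22 in replicate 1 and 46.35 in replicate 2. The third, with its summit at 11832969 in an intron, had a signal of 88.63, with 60.4 in replicate 1 and 32.29 in replicate 2. Both weaker peaks passed the filter in replicate 1 and not in replicate 2, and the third was missing from the larger list. That list held instead a row at 11836307 with a signal of 80.99, which passed in neither replicate. A row in the 3' UTR at 11831264, with a signal of 50.86, was in the list of replicate 1 only.

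ccr-4 (WBGene00000376, chrIV:12361542-12371852, plus strand), which encodes the CCR4 nuclease, had 1 conservative peak, chrIV:12359986-12360385. Its summit at 12360186 had a signal of 94.38, rank 1789 of 2218, with 61.99 in replicate 1 and 34.43 in replicate 2. The peak passed the filter in replicate 1 and not in replicate 2, whose summit lay at −77 bp from the shared one. The summit lies at −1356 bp from ccr-4 and inside a coding exon of its neighbour sec-24.2, a gene on the other strand for a coat protein of secretory vesicles, 606 bp downstream of that gene's 5' end. The peak lists cannot assign the row to either gene.

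**Figure D2:**
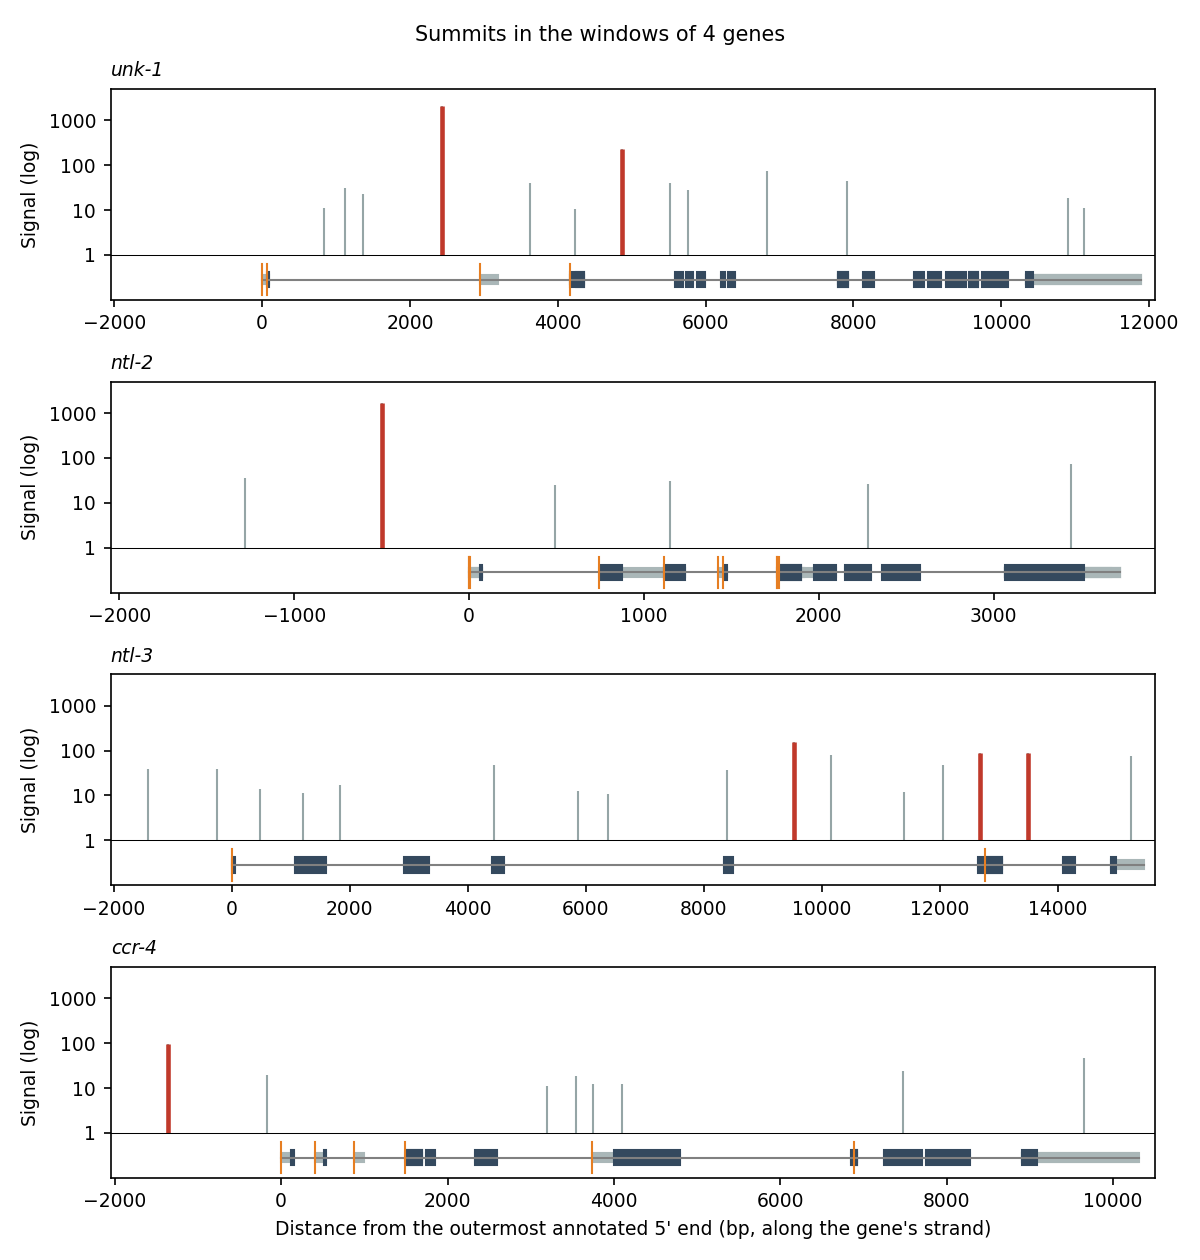
Summits of the between-replicate ranked list (vertical lines, height is the deposited signal on a log axis) along unk-1, ntl-2, ntl-3 and ccr-4, against the distance in bp from the outermost annotated 5' end along the strand of the gene. Wide red lines are summits of conservative peaks, dark boxes coding exons, pale boxes untranslated exons and orange ticks annotated 5' ends: the strong unk-1 summit is 2439 bp inside the gene, that of ntl-2 is upstream of it, and those of ntl-3 are in its 3' part.

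ntl-4 and ntl-11 entered through the larger list alone. ntl-4 (WBGene00003827, chrIV:7910575-7915189, plus strand) encodes subunit 4, which carries a RING-type ubiquitin ligase domain in yeast and human. Its row at 7909650 had a signal of 73.62, rank 2835 of 3278, with 39.09 in replicate 1 and 32.46 in replicate 2. It lay at −925 bp from ntl-4, inside an intron of the neighbouring npp-27 and at −176 bp from a 5' end of that gene. ntl-11 (WBGene00013530, chrIV:15455127-15471495, minus strand) encodes subunit 11. Its row at 15471558, at −63 bp from its 5' end, had a signal of 78.89, rank 2626 of 3278, with 50.41 in replicate 1 and 37.66 in replicate 2. Neither row passed the filter in a single replicate, and their global IDR between the replicates was 0.0161 and 0.0839. The replicate summits at ntl-11 lay at 60 and −107 bp from the shared one, a wider spread than at the 7 conservative peaks.

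let-711, ccf-1 and ntl-9 had no row in any filtered list. let-711 (WBGene00002845, chrIII:6946718-6958894, plus strand) encodes the NOT1 scaffold. Its strongest between-replicate row, at 6945477, had a signal of 62.34 and a global IDR of 0.128, and lay at −1241 bp in a coding exon of the neighbour abu-13. The next, at 6953617 in a coding exon of let-711 itself, had 53.52 and a global IDR of 0.0608. ccf-1 (WBGene00000369, chrIII:11918828-11920237, minus strand) encodes the CAF1 deadenylase. Its strongest row, at 11919488 in a coding exon, had a signal of 52.97 and a global IDR of 0.156. The strongest ccf-1 row was 33.72 in replicate 1, at 11919455, and 26.41 in replicate 2, at 11920192, so the replicates' strongest sites in this gene were not the same. ntl-9 (WBGene00016139, chrIII:4944513-4947317, plus strand) encodes subunit 9, a binding surface for RNA-binding proteins in flies and mammals. Its strongest row, at 4944596, had a signal of 23.25 and a global IDR of 0.711. In the between-replicate list the strongest rows of all 3 genes thus lay above the median over coding genes, in which genes without a row count as having no signal. The ntl-9 row lay below the median of 27.24 over all nuclear rows of that list, and replicate 1 had no ntl-9 row. None of the rows of these 3 genes passed the authors' limit.

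The edges of the windows bear on these counts. The ccr-4 summit was the only conservative one more than 1000 bp upstream of its gene. Just outside the windows, a conservative summit with a signal of 165.3 lay 167 bp beyond the 3' end of ntl-9, and 1 with a signal of 91.04 lay 188 bp beyond the upstream edge at ntl-3. A further summit beyond the 3' end of ntl-3, at 999 bp, had a signal of 179, and 1 beyond the 3' end of ccf-1, at 2365 bp, had 156.8. For the other 6 genes the nearest conservative summit outside the window was at least 9420 bp away.

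At the conservative summits of the 9 genes replicate 1 gave the higher signal in 6 of 7, and the ratio of replicate 1 to replicate 2 ran from 0.944 to 4.19. The median ratio over conservative nuclear peaks with a value in both was 1.64, with quartiles of 1.08 and 2.70 (n = 2070). The ntl-2 ratio exceeded that of 92.75% of these peaks and the unk-1 ratio that of 67.54%, whereas the ratio at the strongest ntl-3 peak exceeded 17.39%. An overlap with the filtered lists of both replicates was found for 4 of the 7 peaks, against 51.91% of the 2194 conservative nuclear peaks. These 4 were both unk-1 peaks and the ntl-2 peak, at the genes chosen through strong peaks, and the strongest ntl-3 peak. All 7 overlapped the list of replicate 1, against 83.96% of all conservative peaks.

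**Figure D3:**
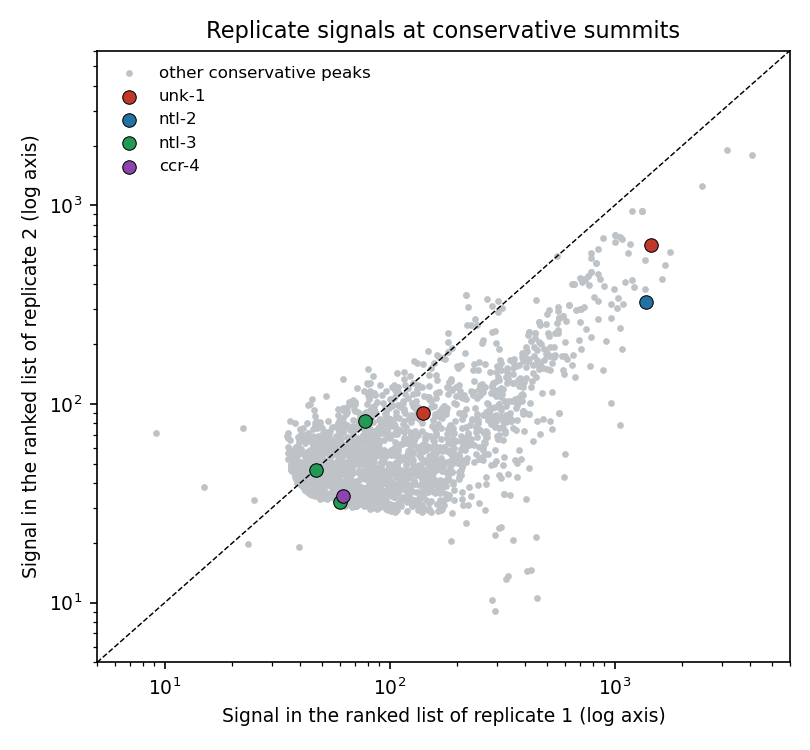
Signal in the ranked list of replicate 1 against that of replicate 2 (log axes) for conservative nuclear peaks with a value in both, with the peaks of unk-1, ntl-2, ntl-3 and ccr-4 coloured and a dashed line of equal values. The strongest unk-1 peak (1453.5 and 630.4) and the ntl-2 peak (1372.6 and 327.7) share nearly the same replicate 1 signal and differ in replicate 2, and 2 ntl-3 peaks lie at the line.

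The peaks most like the unk-1 and ntl-2 peaks were taken as those nearest in the 2 log2 replicate signals among 803 other conservative peaks with a coding gene at the promoter. For unk-1 these were 2 summits of 1 region at Y66A7A.4 (998.7 in replicate 1 and 709.8 in replicate 2) and a summit at inx-18, an innexin gene for gap junctions (1196.2 and 936.4). The Y66A7A.4 summits have conservative signals of 1685.9 and 123.5 and were given the same replicate values, those of the strongest row covering each, so the weaker one is near unk-1 through these values only. For ntl-2 the nearest was grk-1, a G protein-coupled receptor kinase gene, with 1331.7 in replicate 1 and 331.6 in replicate 2, a distance of 0.05 log2 units. The grk-1 summit had a position of −516 bp, a GC content of 66.34% and a run of 15 G or C. pde-6, a cyclic nucleotide phosphodiesterase gene, followed with 1025.4 and 304.6, and Y39A1A.9 with 961.7 and 269.7. The longest run was 6 at pde-6 and 4 at Y39A1A.9, and 2 to 4 at the 3 summits nearest to unk-1, so among these summits a run of 10 or more was found at grk-1 alone. The likeness rests on 2 samples.

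The strongest unk-1 peak and the ntl-2 peak were also GC-rich. Within 50 bp of the summit the GC content was 74.26% at the strongest unk-1 peak and 67.33% at ntl-2. These values exceeded those of 98.91% and 90.66% of conservative nuclear peaks, whose median was 57.43%, and the nuclear genome has 35.44%. The other 5 peaks ran from 40.59% to 57.43%, at or below the median. CpG dinucleotides numbered 13 at ntl-2 and 9 at the strongest unk-1 summit, and 3 to 8 at the others, with a median of 7 over all conservative peaks. The high values were local: within 150 bp of the summit the GC content was 59.47% at unk-1 and 56.15% at ntl-2. They were not particular to these genes. Within 50 bp, the 3 summits nearest to unk-1 in replicate signals had 73.27% to 74.26% GC. The 3 nearest to ntl-2 had 66.34% to 72.28%. Other conservative peaks with signals between those of ntl-2 and unk-1 lay on both sides of the median of 57.43%. The weakest ntl-3 peak and the ntl-11 row in the larger list, with 40.59% and 35.64% GC, had 60.4% and 85.1% of these bases soft-masked in the assembly as repeats, against 20.79% at the strongest unk-1 summit and 19.8% at ntl-2.

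The strongest summits of unk-1, ntl-2 and ntl-3 each had an unbroken run of G or C, the capitals in the sequences above. At unk-1 a run of 13 G ended on the summit itself, and the summits of both replicates fell inside it. At ntl-2 a run of 15 C on the strand of the gene lay 36 to 50 bp from the summit, and at ntl-3 a run of 15 C lay 25 to 39 bp from it. From the summits of replicates 1 and 2 themselves, the ntl-2 run began at 35 and 51 bp. A run of 15 G also lay 71 bp from the second unk-1 summit, beyond the 50 bp limit, and 45 bp from that of each replicate. The other 3 conservative peaks had no run longer than 3 within 50 bp, and none longer than 5 within 150 bp. So 3 of the 7 peaks held a run of 10 or more within 50 bp, against 92 of 2194 conservative nuclear summits (4.193%). Windows of the same length centred 300 bp to either side held 1 in 0.5469% and 0.1823% of cases. The share was 14% among the 50 strongest peaks and 2.644% among the weaker 1097. Of the 3 member peaks with a run, those of unk-1 and ntl-2 are among the 50 strongest and chose the set through their signal. Only the ntl-3 peak had no part in that choice. The median ratio of replicate 1 to replicate 2 was 2.45 for the 89 summits with a run and a value in both replicates, and 1.62 for the 1981 without a run. Of the 3 member summits with a run, ntl-2 lay above both medians at 4.19, unk-1 between them at 2.31 and ntl-3 below both at 0.944. The part of such runs in the signals was not tested. This measure was chosen after the sequences were seen.

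**Figure D4:**
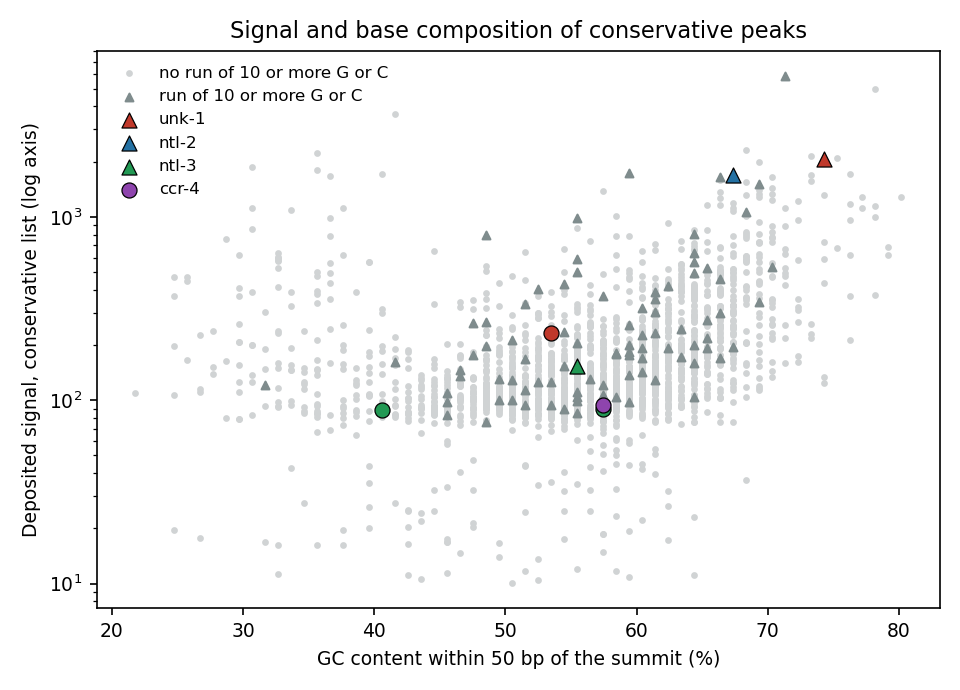
GC content within 50 bp of the summit (%) against the deposited signal (log axis) for the 2194 conservative nuclear peaks, with triangles for summits with a run of 10 or more G or C within 50 bp, circles for those without, and the 7 peaks of unk-1, ntl-2, ntl-3 and ccr-4 coloured. The strongest unk-1 and ntl-2 peaks are triangles at 74.26% and 67.33% GC near the top, and the strongest ntl-3 peak is a triangle at 55.45%.

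Of the patterns searched on both strands within 50 bp of the summits, a single match fell at the 7 peaks. GTGGGCG, read as CGCCCAC on the strand of unk-1 and in capitals above, occurred at the second unk-1 summit. That pattern was found in 1.914% of the 2194 conservative windows and GTGGGTG, which no member peak held, in 1.413%. The GC box GGGCGG, in 9.572% of windows, and GAGAGAGA, in 5.378%, were at none of the 7 summits. The longer GCGTGGGCG, the mammalian EGR1 site, was in none of the 2194 windows. These letters were thus absent within 50 bp of the strongest unk-1, ntl-2 and ntl-3 summits.

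Weak rows were spread over the whole length of the genes. The 9 windows held 75 rows of the between-replicate ranked list, or 7.752 per 10 kb of window, against 2.9 over all coding genes. Of these, 29 lay in introns, 23 in coding exons, 8 in 3' UTRs, 1 in a 5' UTR and 14 outside the gene, 5 of the last in another coding gene. The median signal of the 75 rows was 25.69, against 27.24 over all 26716 nuclear rows of that list. A row covered the summit in the ranked lists of both replicates for 36 of the 75, or 48%, against 42.87% of all rows. High signal in the ranked list did not by itself place a row in the conservative one. Of the 53 rows stronger than the strongest unk-1 row, 45 were absent from the conservative list, and of the 64 stronger than ntl-2, 49 were absent. The IDR limit alone does not give the conservative list. In the between-replicate ranked list 2419 rows had a score of at least 830, the lowest score of the filtered lists, against 2218 conservative peaks. How many of the absent strong rows met that limit was not counted, and why they are absent was not tested.

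Other genes of mRNA decay and poly(A) tail control were counted from a list of 82 genes, of which 80 were found in the annotation. In the conservative list 16 of these had a summit in the window, 20.0% against 10% of all coding genes, and the median windows were 4643 bp and 4027 bp. In the promoter window the count was 10, or 12.5% against 4.86%, with no share taken by the number of 5' ends. By role, summits were found at 3 of 7 genes for other deadenylases and poly(A)-binding proteins, 4 of 15 for decapping and 5'-3' decay, and 1 of 8 for poly(A) and poly(U) polymerases and their partners. They were found at 4 of 18 recruiters of deadenylases, 1 of 13 CCCH zinc finger genes, and 3 of 19 genes of the exosome and nonsense-mediated decay. The count was 19 from the list of replicate 1 and 9 from that of replicate 2, or 23.8% and 11.2%, against 12% and 7.08% of all coding genes in the same lists.

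The strongest of these peaks was at ain-1, which encodes a GW182-type protein that links microRNA complexes to deadenylation. Its signal was 684.7, rank 101 of 2218, at −626 bp, with 512.1 in replicate 1 and 174.9 in replicate 2. At xrn-1, the cytoplasmic 5'-3' exonuclease gene, a coding exon held a summit of 427, with 327 in replicate 1 and 103.9 in replicate 2. cid-1, for a poly(U) polymerase, had 368.4 at −1257 bp, with 207 and 157. exos-3, for an exosome subunit, had 365.4 at −1155 bp, with 181.3 and 183.6. xrn-2, for the nuclear 5'-3' exonuclease, had 225.9 at −1231 bp, with 120.8 and 106.9. The ain-1, cid-1, exos-3 and xrn-2 summits thus lay outside these genes, and the peak lists cannot assign them. All 5 peaks lay below the strongest unk-1 and ntl-2 peaks and above that of ntl-3. Among these 5, the replicate values as given were furthest apart at xrn-1 and ain-1, where replicate 1 was higher, and nearest at exos-3. The 2 lists are not stated to share a scale, and the median ratio of replicate 1 to replicate 2 over conservative nuclear peaks was 1.64. Nearly equal values are therefore not the closest to that median.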

How the data were processed

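Peak lists from 2 biological replicates of 1 group were analysed, with coordinates on ce11, per the labels. The authors called the peaks and applied the IDR filter before they deposited the lists. Aligner and peak caller: not given in the sources used here. Control data were not used here. Each deposited row gives an interval, a summit, a signal of peak strength against control with no stated scaling, a score up to 1000 that follows the IDR, and a −log10 q-value from the authors, to which ranked rows add the −log10 global IDR. The lowest score in the filtered lists is 830. Per the deposited file listing, 1 more input went into the filtered lists than into the ranked ones, with no role stated.

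Rows were assigned to genes of the WBcel235 annotation (Ensembl release 115) by summit, with Python 3.11.15, numpy 2.4.6 and matplotlib 3.10.9. Replicate signals were read from the strongest row of the ranked list of each replicate that covered the summit, and a match between filtered lists needed an overlap of 1 bp. Sequence measures used 50 bp to each side of the summit. The assignment of summits to windows was tested on simulated data. The members and gene lists were chosen with earlier results of these data known, so no test was run, and counts stand beside the same share over all coding genes. All 9 genes were named, with genes that hold a summit of theirs, the 3 nearest peaks in replicate signals and the 5 strongest peaks of the decay list. Runs of G or C were measured after the sequences were seen. The lists hold no counts, so the depth is unknown and no interval for counting error was computed. Alternatives changed the list, the window, the summit, the composition width and the matching rule, and used each replicate alone.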

Additional observations from a re-analysis of the deposited data

How the results depend on the processing

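The number of members with a summit, 4, ran from 3 to 6 over the alternatives: 6 in the larger list, 3 with a global IDR under 0.005, 3 with 1000 or 500 bp upstream or the promoter window, 4 with interval midpoints, and 3 to 4 with a single replicate. The decay list count of 16 was 20 in the larger list, fell to 10 in the promoter window and ran from 9 to 19 with a single replicate. In the single replicates the strongest signal ran from 630.4 to 1453.5 at unk-1 and from 327.7 to 1372.6 at ntl-2, on scales that are not stated to be shared. The member peaks matched in both replicates numbered 4, and 2 with a reciprocal overlap of 50%. The count of 3 summits with a run of G or C was 3 for runs of 8 or 12 and 4 within 150 bp. No paired analysis was possible because there is 1 group and no test. Without an untagged strain, enrichment that does not depend on the tag was not measured, and the depth that limits weak rows is unknown.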
